A study of Mus musculus with 12 samples.

Results

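The fatty acid elongases and front-end desaturases comprise 10 genes, the 7 elongases Elovl1 to Elovl7 and the 3 desaturases Fads1, Fads2 and Fads3. They were chosen by gene symbol, as 2 whole families among the 23955 symbols of the count table, and all 10 had a row. The families were proposed with the contrasts between the treatments already known. The fold changes and adjusted p-values below therefore describe these genes and support nothing further. Of the 10 genes, 8 passed the filter on low counts and were among the 12323 genes tested. Elovl2 and Elovl7 did not pass it.

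The 12 RNA-seq libraries came from mesenchymal stem cells of mouse bone marrow, which can form fat, bone or cartilage, bought as a commercial stock from female C57BL/6 mice and used at passages 9 to 10. There were 4 libraries of cells given 50 nM tributyltin (TBT), 4 of cells given 500 nM rosiglitazone (ROSI) and 4 of cells given 0.1% DMSO, the solvent. All 3 groups also received the adipogenic cocktail for 14 days, made up of insulin at 5 ug/mL, isobutylmethylxanthine at 0.5 mM and dexamethasone at 1 uM, so DMSO cells were induced cells without added ligand. Rosiglitazone activates the fat cell receptor PPARγ, and tributyltin is an organotin that activates PPARγ and its partner RXR. The comparisons ask how each ligand, added to the same cocktail, changed gene expression, and where the ligands differ.

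Elongases sit in the endoplasmic reticulum and carry out the condensation step that lengthens a fatty acyl chain with carbon from malonyl-CoA. Elovl1, Elovl3, Elovl6 and Elovl7 act mainly on saturated and monounsaturated chains, Elovl2 and Elovl5 on polyunsaturated chains, and Elovl4 makes the longest chains known in mammals. Front-end desaturases of fatty acids place a double bond between an existing one and the carboxyl end of the chain. Fads1 and Fads2, together with Elovl5 and Elovl2, turn the essential fatty acids of the diet into arachidonic acid and its relatives. In fat cells these enzymes shape the chains that enter triglycerides and membranes.

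Measured as CPM (a gene's reads scaled to a common library size) per kilobase of exon, Elovl5 made up most elongase message in every group. Its share of the summed elongase level was 84.5 ± 1.64% in TBT, 75.2 ± 1.18% in ROSI and 70.5 ± 2.71% in DMSO (SD, n = 4 each). The elongase sum itself was 120 ± 11.2 CPM per kilobase in TBT, 155 ± 13.7 in ROSI and 86.3 ± 16.4 in DMSO. The share of Elovl3 was 0.322 ± 0.071% in TBT, 12.1 ± 1.20% in ROSI and 3.69 ± 1.30% in DMSO, so by mean level per length it had rank 4 of the 10 genes in ROSI and rank 8 in TBT and in DMSO. Fads1 held 86.7 ± 0.851% of the desaturase sum in TBT, 74.0 ± 4.39% in ROSI and 80.3 ± 5.78% in DMSO. Fads3 held 9.05 ± 1.20% in TBT, 21.3 ± 2.83% in ROSI and 12.1 ± 3.28% in DMSO, and Fads2 the smallest share in each group by mean.

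**Figure D1:**
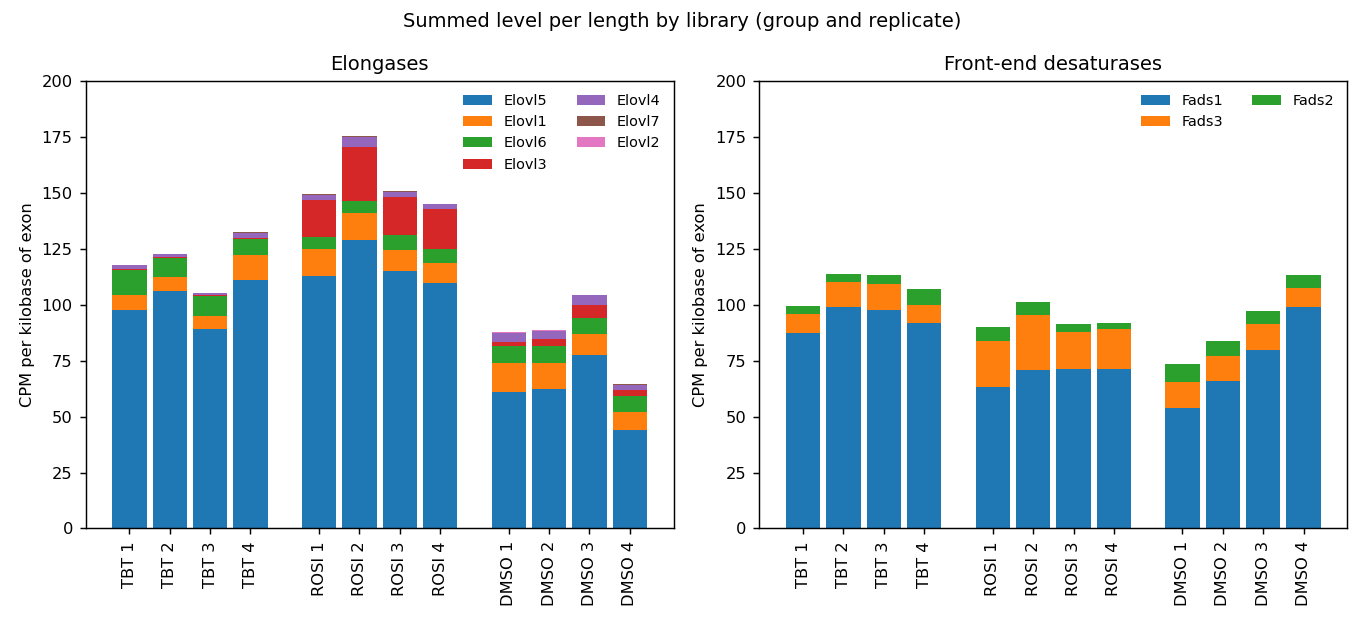
Stacked bars give the level of each elongase (left) and desaturase (right) in CPM per kilobase of exon in each of the 12 libraries, TBT, ROSI and DMSO from left to right. Elovl5 and Fads1 fill most of every bar, and the Elovl3 segment is visible in all 4 ROSI libraries and almost absent from the 4 TBT libraries.

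By mean level per length the order in TBT was Elovl5, Fads1, Fads3, Elovl6, Elovl1, Fads2, Elovl4, Elovl3, Elovl7 and Elovl2. The libraries of Elovl5 and Fads1 overlapped there, as did Fads3 with Elovl6, Elovl6 with Elovl1, Elovl1 with Fads2, and Elovl3 with Elovl7. In ROSI the order was Elovl5, Fads1, Fads3, Elovl3, Elovl1, Elovl6, Fads2, Elovl4, Elovl7 and Elovl2, with overlap between Fads3 and Elovl3, Elovl6 and Fads2, and Fads2 and Elovl4. In DMSO it was Fads1, Elovl5, Fads3, Elovl1, Elovl6, Fads2, Elovl4, Elovl3, Elovl7 and Elovl2, with overlap between Fads1 and Elovl5, Fads3 and Elovl1, Elovl6 and Fads2, and Elovl4 and Elovl3. All other neighbours in these orders were separate in every library of the group.

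Against DMSO, ROSI cells had more Elovl3, Elovl5 and Fads3 message, and TBT cells had more Elovl5 and less Elovl3 and Elovl4. Called here means an adjusted p under 0.05 in edgeR's quasi-likelihood test, adjusted by Benjamini-Hochberg over all 12323 genes. In ROSI against DMSO, 3 of the 8 genes tested were called higher and none lower, where 22.6% of all genes tested were called, 10.0% higher and 12.6% lower. In TBT against DMSO, 1 was called higher and 2 lower, where 15.2% of all genes were called, 8.22% higher and 7.03% lower. In TBT against ROSI, 2 were called higher and 2 lower, where 23.9% of all genes were called, 12.8% higher and 11.1% lower. With 8 genes tested these counts are small, and no share is read from them.

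The median log2 fold change of the 8 genes was -0.04 in ROSI against DMSO, beside 0.01 over all genes. It was -0.31 in TBT against DMSO, beside -0.01 over all genes, and -0.36 in TBT against ROSI, beside 0.02 over all genes. The comparisons of ROSI and of TBT with DMSO share the same 4 DMSO libraries. Only Elovl3 was called in opposite directions against DMSO. Leaving out TBT replicate 4, the library that stood apart from its group, took the counts of called genes to 5 in ROSI against DMSO, 6 in TBT against DMSO and 6 in TBT against ROSI. In ROSI against DMSO that library enters only through the filter, the scaling and the estimate of spread, which the 3 groups share. Calls over all genes rose in the same fits, to 3537 in ROSI against DMSO, 4124 in TBT against DMSO and 4826 in TBT against ROSI, beside 2787, 1879 and 2940 with all libraries.

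**Figure D2:**
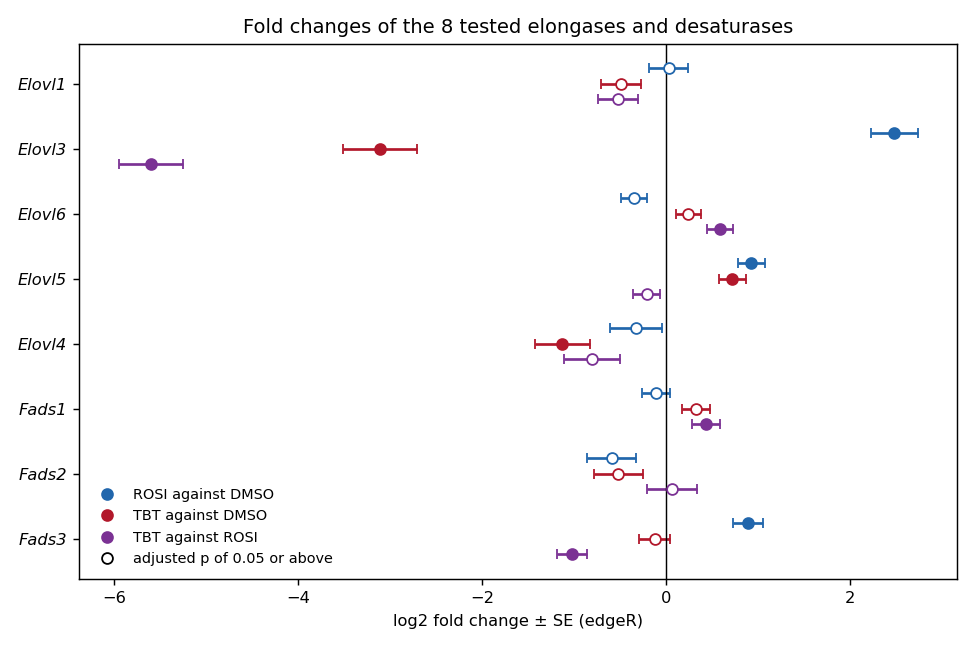
Points give the log2 fold change and bars its SE from edgeR for the 8 genes tested, in ROSI against DMSO (blue), TBT against DMSO (red) and TBT against ROSI (purple), filled where the adjusted p is under 0.05. Elovl3 lies at 2.49 in ROSI against DMSO and at -3.11 in TBT against DMSO, at -5.60 in TBT against ROSI, and the other genes lie between -1.13 and 0.93.

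Elovl3, an elongase of saturated and monounsaturated chains known in mice from brown fat, skin and liver, had the largest fold change of the 8 genes in each comparison. TBT libraries held 0.715, 0.579, 0.856 and 0.870 CPM, ROSI libraries 32.6, 47.6, 34.0 and 35.1 CPM, and DMSO libraries 4.28, 5.38, 11.3 and 4.74 CPM. The 3 groups did not overlap in any pair, with every TBT library at the bottom and every ROSI library at the top. The TBT values rest on 3 to 4 reads per library, 15 in all, so they carry a wide counting error, while the ROSI libraries held 869 reads together and the DMSO libraries 153. Its log2 fold change was 2.49 ± 0.25 in ROSI against DMSO (SE, edgeR, adjusted p = 2.3e-06), a 5.61-fold higher level. It was -3.11 ± 0.40 in TBT against DMSO (edgeR, adjusted p = 0.00015), an 8.64-fold lower level, and -5.60 ± 0.35 in TBT against ROSI (edgeR, adjusted p = 3.7e-08).

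DMSO replicate 3 had the highest Elovl3 of its group and also the highest Fabp4, Cd36 and Plin1, markers of fat cells, but the lowest Adipoq, another such marker. Fabp4 was at 314 CPM in that library and at 63.9 to 126 CPM in the other DMSO libraries, and Adipoq at 7.05 CPM in it and 10.2 to 15.0 CPM in the others. Without DMSO replicate 3 the log2 fold change of Elovl3 was 2.97 in ROSI against DMSO and -2.65 in TBT against DMSO, and both calls held. Of 5 brown or beige fat markers tested, 2 were called higher and 1 lower in ROSI against DMSO, none higher and 1 lower in TBT against DMSO, and 1 higher and 4 lower in TBT against ROSI. The shares called over all genes tested were 22.6%, 15.2% and 23.9% in that order. Cidea, a lipid droplet protein of brown fat, was the 1 marker called lower in TBT against DMSO, at -1.84 ± 0.33, and was at 0.80 ± 0.26 in ROSI against DMSO. The 4 markers lower in TBT than in ROSI were Cidea, Cox8b, Ppargc1a and Prdm16. Cox8b lay at 2.98 to 5.82 CPM in ROSI libraries, at most 1.52 CPM in TBT and 0.936 CPM in DMSO. It passed the filter on low counts through its ROSI libraries, so its calls support nothing further. Dio2, which activates thyroid hormone in brown fat, went the other way, lower in ROSI than in DMSO at -1.91 ± 0.27 (edgeR, adjusted p = 5e-05) and higher in TBT than in ROSI at 1.39 ± 0.27 (edgeR, adjusted p = 0.0014). It averaged 72.6 ± 22.8 CPM in TBT, 27.8 ± 7.38 CPM in ROSI and 104 ± 36.8 CPM in DMSO (SD, n = 4 each). Ucp1, the defining thermogenic gene, had no read in any TBT library and averaged 0.421 ± 0.250 CPM in ROSI and 0.367 ± 0.540 CPM in DMSO (SD, n = 4 each). The summed level of all 7 brown or beige markers ran between 69.6 and 125 CPM in TBT, 77.5 and 108 CPM in ROSI, and 118 and 194 CPM in DMSO, and its part in the Elovl3 result was not tested. Most of that sum was Dio2 and Ppargc1a. Ppargc1a averaged 27.8 ± 5.35 CPM in TBT, 40.9 ± 7.74 CPM in ROSI and 32.4 ± 3.16 CPM in DMSO (SD, n = 4 each).

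Elovl6, which lengthens palmitate to stearate, the step just after fatty acid synthase, had 69.0, 52.9, 52.6 and 43.3 CPM in TBT libraries, 33.9, 33.5, 39.2 and 38.1 CPM in ROSI libraries and 46.1, 47.5, 46.3 and 43.9 CPM in DMSO libraries. All TBT libraries lay above all ROSI libraries, and all ROSI libraries below all DMSO libraries, while TBT and DMSO overlapped. It was 1.51-fold higher in TBT than in ROSI, a log2 fold change of 0.59 ± 0.14 (edgeR, adjusted p = 0.0066). Its value of -0.34 ± 0.14 in ROSI against DMSO did not pass (edgeR, adjusted p = 0.094), nor did 0.25 ± 0.14 in TBT against DMSO (edgeR, adjusted p = 0.23). Both passed without TBT replicate 4, at -0.34 (adjusted p = 0.049) and 0.36 (adjusted p = 0.044). The ROSI fold change was nearly unmoved there, and its SE went from 0.141 to 0.1245. The ROSI value also passed when only the ROSI and DMSO libraries were fitted (adjusted p = 0.039). With GC correction and without TBT replicate 4, neither value against DMSO passed. They were then -0.22 in ROSI (edgeR, adjusted p = 0.16) and 0.26 in TBT (edgeR, adjusted p = 0.13).

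Elovl1, which makes the very long saturated chains used in sphingolipids, had 13.05, 11.6, 11.8 and 21.5 CPM in TBT libraries, 23.3, 23.4, 19.01 and 17.3 CPM in ROSI libraries, and 25.2, 22.9, 17.7 and 16.0 CPM in DMSO libraries. TBT replicates 1 to 3 were below every other library, and TBT replicate 4 lay within the range of the other groups. The log2 fold change was 0.03 ± 0.21 in ROSI against DMSO, with a sign that turned in 5 of 22 alternatives, -0.49 ± 0.22 in TBT against DMSO (edgeR, adjusted p = 0.13) and -0.52 ± 0.22 in TBT against ROSI (edgeR, adjusted p = 0.086). Without TBT replicate 4 the TBT values were -0.72 (adjusted p = 0.008) and -0.76 (adjusted p = 0.0042). With GC correction as well they were -0.58 (edgeR, adjusted p = 0.027) and -0.64 (edgeR, adjusted p = 0.012). In the GRCm38 annotation Elovl1 overlaps Cdc20, and the reads carry no strand. Cdc20, a cell division gene, averaged 2.15 ± 0.684 CPM in TBT, 0.891 ± 0.639 CPM in ROSI and 2.24 ± 0.648 CPM in DMSO (SD, n = 4 each).

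Elovl7, an elongase of long saturated chains, was near the limit of detection with 3 to 13 reads per library. It averaged 0.976 ± 0.329 CPM in TBT, 1.42 ± 0.433 CPM in ROSI and 1.23 ± 0.426 CPM in DMSO (SD, n = 4 each), and the 3 groups overlapped. It was not tested.

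**Figure D3:**
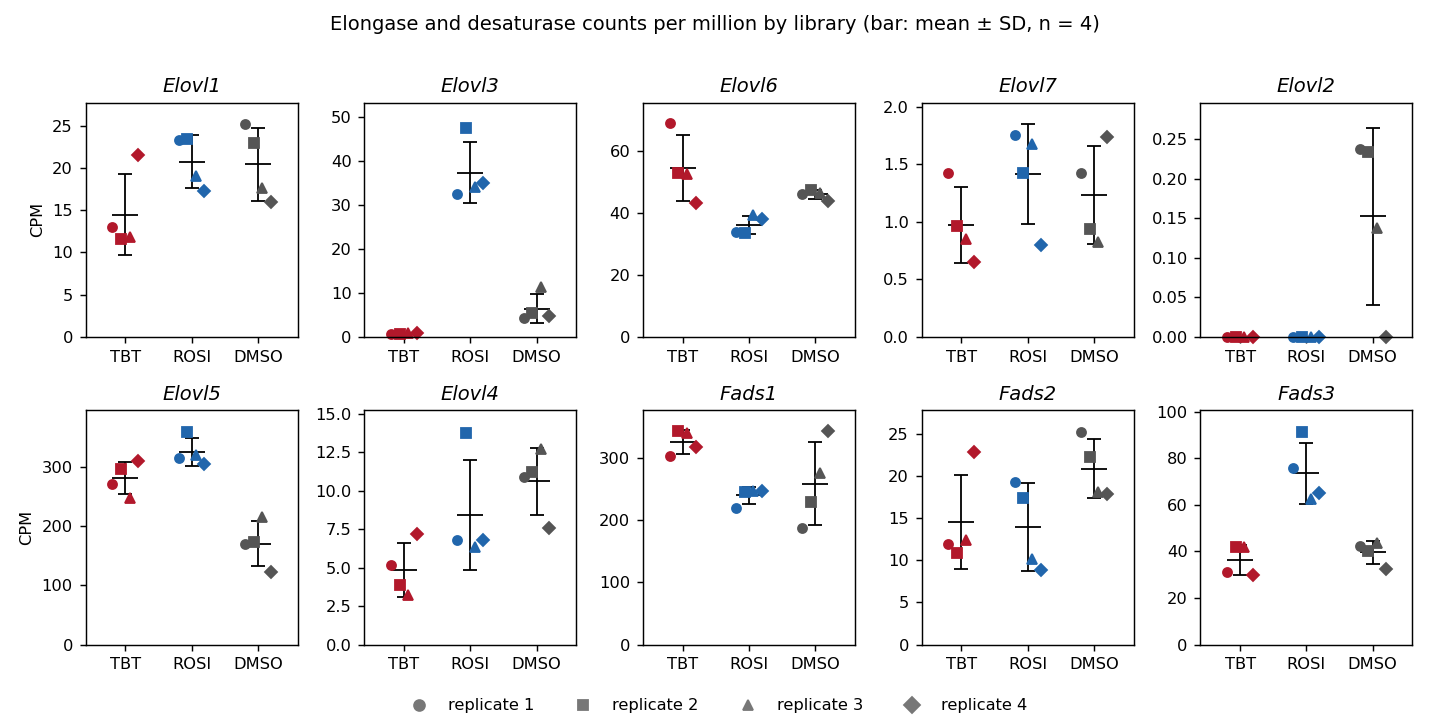
Each panel gives the CPM of 1 gene in the 12 libraries, with TBT, ROSI and DMSO from left to right, marker shapes for replicates 1 to 4 and a bar for the mean ± SD of 4 libraries. The 4 ROSI libraries of Elovl3 (32.6 to 47.6 CPM) and of Fads3 (62.5 to 91.2 CPM) lie above all other libraries of those genes, and TBT replicate 4 lies apart from the other TBT libraries in Elovl1 and Fads2.

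Elovl5, the main elongase of polyunsaturated chains of intermediate length, was the 1 gene of the 8 tested that was called higher with both ligands. TBT libraries had 271, 296, 248 and 309 CPM, ROSI libraries 314, 358, 320 and 305 CPM, and DMSO libraries 169, 173, 216 and 122 CPM. Every TBT and every ROSI library was above every DMSO library, and TBT and ROSI overlapped. It was 1.91-fold higher in ROSI than in DMSO, a log2 fold change of 0.93 ± 0.15 (edgeR, adjusted p = 0.0002), and 1.65-fold higher in TBT than in DMSO, at 0.72 ± 0.15 (edgeR, adjusted p = 0.0054). Both calls held in all 22 alternatives. TBT against ROSI gave -0.21 ± 0.15 (edgeR, adjusted p = 0.32).

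Elovl2, which acts late in the making of docosahexaenoic acid, had no read in any TBT or ROSI library and 1, 1, 1 and 0 reads in the DMSO libraries. A count of 0 over a group allows up to 0.150 CPM in TBT and 0.1302 CPM in ROSI, counting 3 reads over the group, and this covers counting error only. No difference was detectable at this depth.

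Elovl4, known in retina and skin for its ultra-long chains, had 5.18, 3.86, 3.21 and 7.18 CPM in TBT libraries, 6.77, 13.75, 6.34 and 6.82 CPM in ROSI libraries, and 10.9, 11.2, 12.7 and 7.59 CPM in DMSO libraries. All TBT libraries were below all DMSO libraries, with TBT replicate 4 closest to them, and the ROSI libraries overlapped both. In TBT it was 2.18-fold lower than in DMSO, a log2 fold change of -1.13 ± 0.30 (edgeR, adjusted p = 0.021). The call was lost in some fits without 1 library. Leaving out DMSO replicate 1, 2 or 3 gave adjusted p-values of 0.050, 0.051 and 0.053, at -1.11, -1.10 and -1.02. Leaving out TBT replicate 2 or 3 gave 0.064 and 0.067, at -1.03 and -0.99. The fold change thus moved little. Calls over all genes in TBT against DMSO fell in the same fits, to 1019, 1088, 1596, 1138 and 1080 in that order, beside 1879 with all libraries. Without TBT replicate 4 the fold change was -1.35 (adjusted p = 0.0029). ROSI against DMSO gave -0.32 ± 0.28 (edgeR, adjusted p = 0.47), and -0.68 (adjusted p = 0.097) without ROSI replicate 2, the highest ROSI library. TBT against ROSI gave -0.80 ± 0.31 (edgeR, adjusted p = 0.065). It was -0.45 (adjusted p = 0.30) without ROSI replicate 2 and -1.03 (adjusted p = 0.014) without TBT replicate 4. With GC correction it was -0.98 (edgeR, adjusted p = 0.031), and -1.27 (edgeR, adjusted p = 0.0037) when TBT replicate 4 was left out too.

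Fads1, which makes arachidonic acid from its direct precursor, had 302, 343, 339 and 318 CPM in TBT libraries, 219, 246, 246 and 247 CPM in ROSI libraries, and 187, 229, 276 and 342 CPM in DMSO libraries. TBT libraries all lay above ROSI libraries, and DMSO libraries spread across both groups. Fads1 was 1.36-fold higher in TBT than in ROSI, at 0.44 ± 0.15 (edgeR, adjusted p = 0.044). This call was close to the threshold, with adjusted p-values of 0.051 to 0.12 in 12 of 22 alternatives, among them each fit without 1 ROSI library and each fit without TBT replicate 1, 2 or 3. With GC correction the value was 0.52 (edgeR, adjusted p = 0.021), and 0.56 (edgeR, adjusted p = 0.0086) when TBT replicate 4 was left out too. Against DMSO Fads1 gave 0.33 ± 0.15 in TBT (edgeR, adjusted p = 0.14) and -0.11 ± 0.15 in ROSI (edgeR, adjusted p = 0.67). Without DMSO replicate 4 these were 0.50 (adjusted p = 0.032) and 0.05 (adjusted p = 0.84).

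Fads2, which takes the first desaturation step on linoleic and alpha-linolenic acid, had 12.0, 10.8, 12.4 and 22.8 CPM in TBT libraries, 19.3, 17.4, 10.1 and 8.83 CPM in ROSI libraries, and 25.2, 22.2, 18.1 and 17.9 CPM in DMSO libraries. TBT replicates 1 to 3 and ROSI replicates 2 to 4 were below every DMSO library, and 1 library of each ligand overlapped DMSO. The log2 fold change was -0.59 ± 0.27 in ROSI against DMSO (edgeR, adjusted p = 0.13) and -0.52 ± 0.27 in TBT against DMSO (edgeR, adjusted p = 0.19). Without TBT replicate 4 these were -0.58, nearly unmoved but with an SE of 0.21 (edgeR, adjusted p = 0.048), and -0.80 (edgeR, adjusted p = 0.015). With GC correction and without TBT replicate 4 they were -0.58 (edgeR, adjusted p = 0.038) and -0.59 (edgeR, adjusted p = 0.061). TBT against ROSI gave 0.07 ± 0.27 (edgeR, adjusted p = 0.87), and -0.22 (adjusted p = 0.50) without that library.

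Fads3, a desaturase that acts on sphingoid bases, had 31.3, 42.1, 41.9 and 30.01 CPM in TBT libraries, 75.7, 91.2, 62.5 and 65.0 CPM in ROSI libraries, and 42.3, 40.2, 43.5 and 32.2 CPM in DMSO libraries. All ROSI libraries were above all other libraries, and TBT and DMSO overlapped. It was 1.86-fold higher in ROSI than in DMSO, at 0.90 ± 0.16 (edgeR, adjusted p = 0.00055), and 2.03-fold lower in TBT than in ROSI, at -1.02 ± 0.16 (edgeR, adjusted p = 0.00029). Both calls held in all 22 alternatives. TBT against DMSO gave -0.12 ± 0.16 (edgeR, adjusted p = 0.64), a sign that turned to 0.01 when read counts were corrected for GC content.

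In the GRCm38 annotation Fads3, Fads2 and Fads1 are direct neighbours on chromosome 19. Among these neighbours Fads3 was called higher in ROSI against DMSO, while the values of Fads1 and Fads2 lay below 0 and did not pass. Elovl4 and Elovl5 both lie on chromosome 9, and Elovl3 overlaps Pitx3 on chromosome 19. Pitx3 had no read in TBT or DMSO libraries and averaged 0.344 ± 0.335 CPM in ROSI (SD, n = 4).

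The promoters of Elovl5, Elovl4 and Fads3 are shown because these genes were called against DMSO and have a window in the RefSeq table of GRCm38.p6, in which 8 of the 10 genes had 1. Each window runs 5′ to 3′ on the gene's strand with 250 bases before the annotated start and 30 after it. Capitals mark matches on either strand to CACGTG (an E-box), CCAAT, TGACGTCA (a cAMP response element) and GGGCGG (a GC box), and AGGTCA, the core of nuclear receptor sites, was searched too. The Elovl5 window is chr9:77917115-77917394 on the plus strand, the Elovl4 window chr9:83806276-83806555 on the minus strand and the Fads3 window chr19:10041298-10041577 on the plus strand.
Elovl5: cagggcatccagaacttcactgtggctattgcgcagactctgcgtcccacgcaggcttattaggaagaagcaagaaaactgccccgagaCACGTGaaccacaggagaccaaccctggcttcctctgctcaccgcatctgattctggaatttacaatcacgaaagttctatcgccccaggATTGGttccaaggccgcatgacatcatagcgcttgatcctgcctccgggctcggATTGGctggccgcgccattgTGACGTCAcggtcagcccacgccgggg
Elovl4: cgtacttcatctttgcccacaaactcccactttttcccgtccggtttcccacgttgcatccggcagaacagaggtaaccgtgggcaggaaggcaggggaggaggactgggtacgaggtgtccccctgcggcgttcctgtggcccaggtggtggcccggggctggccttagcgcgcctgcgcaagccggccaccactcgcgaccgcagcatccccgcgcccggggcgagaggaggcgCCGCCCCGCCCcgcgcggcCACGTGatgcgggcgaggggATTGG
Fads3: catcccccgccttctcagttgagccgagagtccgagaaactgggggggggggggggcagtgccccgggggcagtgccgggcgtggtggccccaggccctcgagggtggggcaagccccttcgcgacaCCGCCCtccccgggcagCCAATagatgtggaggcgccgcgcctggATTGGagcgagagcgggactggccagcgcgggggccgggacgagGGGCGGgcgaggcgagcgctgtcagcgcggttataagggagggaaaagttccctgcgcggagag

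The Elovl5 window held 1 E-box, 2 CCAAT boxes on the reverse strand and 1 cAMP response element beginning 3 bases after the start. In the Elovl4 window stood 1 E-box, 1 CCAAT box on the reverse strand and 2 GC boxes that share a base. The Fads3 window had 2 of the CCAAT boxes, 1 on each strand, and 2 GC boxes. Of 32851 mouse windows of the same length, 6.79% held the E-box, 36.1% the CCAAT box, 1.74% the cAMP response element and 34.7% the GC box. The nuclear receptor core was not among the letters of these 3 windows, and 15.3% of all windows held it. It stood once in the Elovl6 window and once in 1 of 2 Elovl1 windows.

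Elovl3 and Elovl4 were called against DMSO with a fold of at least 2, and the tested genes most like them were found by the root-mean-square difference of centred log2 CPM over the 12 libraries. The nearest to Elovl3 were Tmem45b at 0.742, Lama4 at 0.844 and Cdsn at 0.941, where the median over all genes was 2.12. Lama4, a laminin chain, averaged 8.23 ± 1.59 CPM in TBT, 73.9 ± 8.45 CPM in ROSI and 19.3 ± 8.15 CPM in DMSO (SD, n = 4 each). Tmem45b averaged 0.205 ± 0.303 CPM in TBT, 12.7 ± 2.43 CPM in ROSI and 5.66 ± 1.67 CPM in DMSO. The nearest to Elovl4 were Adck5 at 0.252, Pcyt2, an enzyme of phosphatidylethanolamine synthesis, at 0.254, and Cltb, a clathrin light chain, at 0.282, where the median over all genes was 0.681. All 12 libraries enter both measures, so shared library differences count toward the likeness.

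The elongation cycle also needs a reductase, a dehydratase and a final reductase, and the electron supply of the desaturases comes through cytochrome b5. Of 6 partners of the elongation cycle tested, 2 were called higher and 1 lower in ROSI against DMSO, none in TBT against DMSO, and 2 higher and 3 lower in TBT against ROSI. Over all genes tested 22.6%, 15.2% and 23.9% were called in these 3 comparisons, and with lists this short no list's count is read as differing from that. The list's median log2 fold change was 0.08 in ROSI against DMSO, -0.10 in TBT against DMSO and -0.21 in TBT against ROSI, where the medians over all genes were 0.01, -0.01 and 0.02. Hacd2, a dehydratase of the cycle, averaged 203 ± 12.1 CPM in TBT, 405 ± 29.4 CPM in ROSI and 160 ± 24.7 CPM in DMSO (SD, n = 4 each), and rose with ROSI by 1.34 ± 0.13 on the log2 scale (edgeR, adjusted p = 1.3e-06). Hsd17b12, the keto-reductase, rose with ROSI by 0.88 ± 0.23 (edgeR, adjusted p = 0.0097) and was lower in TBT than in ROSI at -1.21 ± 0.23. Hacd4, another dehydratase, fell with ROSI at -1.88 ± 0.21 (edgeR, adjusted p = 6.2e-06). It was 1 of the 2 called higher in TBT than in ROSI, at 1.58 ± 0.21 (edgeR, adjusted p = 6.7e-05). Hacd2 at -0.99 ± 0.12 and Tecr, the final reductase, at -0.59 ± 0.16 were lower in TBT than in ROSI.

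Of 6 cytochrome b5 genes tested, 2 were called higher in ROSI against DMSO, none higher and 1 lower in TBT against DMSO, and 2 lower in TBT against ROSI, with medians of 0.19, 0.14 and -0.20 in that order. The shares called over all genes tested were again 22.6%, 15.2% and 23.9%. The reductases Cyb5r1 at 1.92 ± 0.34 and Cyb5r2 at 1.79 ± 0.46 were the ones higher in ROSI. Cyb5r2 lay at 2.46 to 5.21 CPM in ROSI libraries, at most 2.14 CPM in TBT and 1.93 CPM in DMSO. It passed the filter on low counts through its ROSI libraries, so its calls support nothing further. Cyb5r3, which feeds electrons to cytochrome b5, was the one lower in TBT at -0.68 ± 0.17 (edgeR, adjusted p = 0.014). Of 6 other desaturases tested, 5 were called higher in ROSI against DMSO, 5 higher in TBT against DMSO and 1 lower in TBT against ROSI, with medians of 1.45, 1.06 and -0.14. Scd1, which makes oleate and palmitoleate, rose by 2.28 ± 0.26 in ROSI and by 2.30 ± 0.27 in TBT, and Scd2 by 1.26 ± 0.16 in ROSI and 1.07 ± 0.16 in TBT. Scd1 to Scd4 are close paralogs, and how reads were split among them is not known. Degs1, the ceramide desaturase, rose by 0.43 ± 0.13 in ROSI and by 0.49 ± 0.13 in TBT.

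The share called over all genes tested was 22.6% in ROSI against DMSO, 15.2% in TBT against DMSO and 23.9% in TBT against ROSI. Of 9 genes that supply fatty acid synthesis, 6 were called higher in ROSI against DMSO and 5 in TBT against DMSO, with none lower. Me1, a source of NADPH, rose by 1.21 ± 0.16 in ROSI and by 0.54 ± 0.16 in TBT. Acaca, which makes malonyl-CoA, the carbon donor of elongation, rose by 0.73 ± 0.13 in ROSI and by 0.50 ± 0.13 in TBT. In TBT against ROSI, 1 was called higher and 3 lower, and the medians were 0.73 in ROSI against DMSO, 0.50 in TBT against DMSO and -0.23 in TBT against ROSI. Of 13 lipogenic regulators tested, 5 were called higher in ROSI against DMSO, 4 higher and 1 lower in TBT against DMSO, and 5 lower in TBT against ROSI, with medians of 0.41, -0.16 and -0.52. Srebf1, a main driver of lipogenic genes, rose by 1.21 ± 0.20 in ROSI and by 0.70 ± 0.20 in TBT, and Insig1, which restrains its processing, by 1.32 ± 0.18 in ROSI and 1.15 ± 0.18 in TBT. Scap, the escort of SREBP proteins, fell with TBT at -0.79 ± 0.13 (edgeR, adjusted p = 0.0012).

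Ppara averaged 5.08 ± 1.77 CPM in TBT, 24.7 ± 2.37 CPM in ROSI and 7.35 ± 2.504 CPM in DMSO (SD, n = 4 each), and was called higher in ROSI and, in TBT against ROSI, lower. Pparg, the receptor of rosiglitazone, was at 0.41 ± 0.15 in ROSI against DMSO (edgeR, adjusted p = 0.066) and 0.36 ± 0.15 in TBT against DMSO (edgeR, adjusted p = 0.12). Rxra was at 0.36 ± 0.14 in ROSI against DMSO (edgeR, adjusted p = 0.068) and -0.17 ± 0.14 in TBT against DMSO (edgeR, adjusted p = 0.43). In TBT against ROSI it was lower at -0.53 ± 0.14 (edgeR, adjusted p = 0.011).

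**Figure D4:**
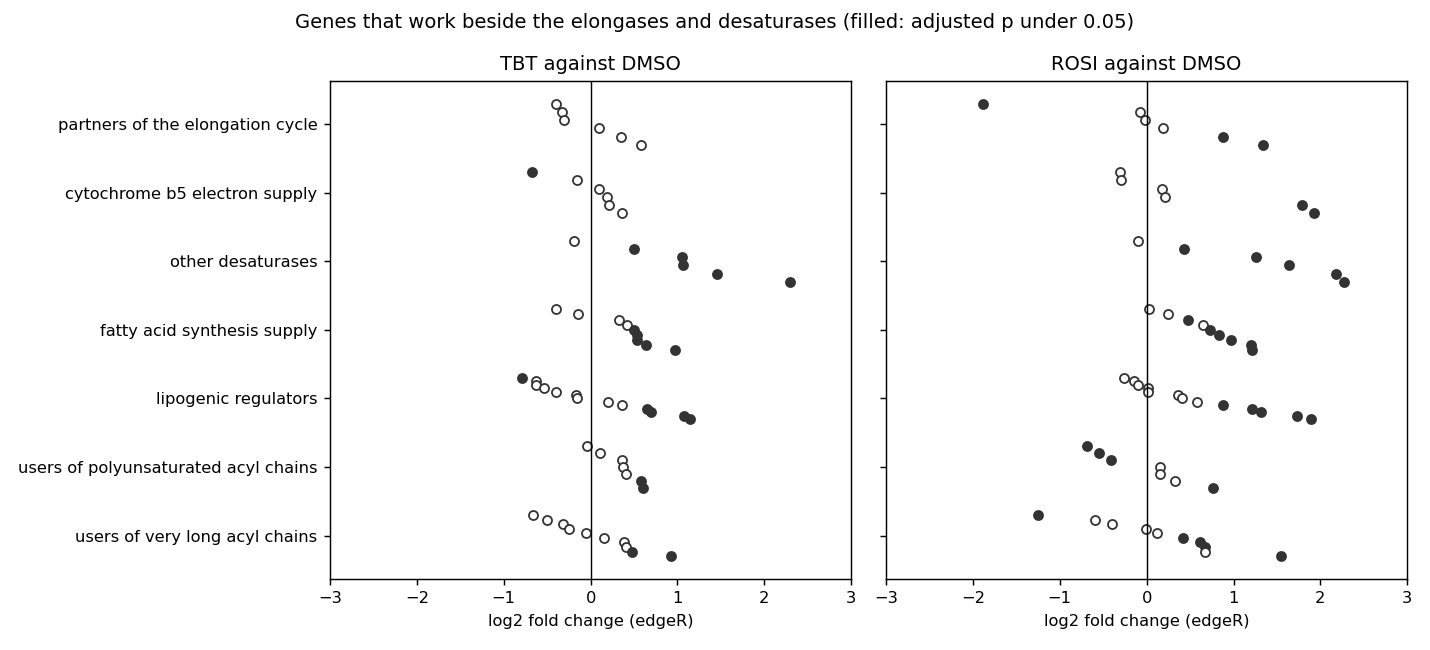
Each point is 1 gene of 7 lists placed by its log2 fold change in TBT against DMSO (left) and ROSI against DMSO (right), filled where the edgeR adjusted p is under 0.05. Filled points of the other desaturases all lie above 0 in both panels, and the partners of the elongation cycle have no filled point in TBT against DMSO.

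Genes that use the products were described from lists as well. Of 7 users of polyunsaturated chains tested, 1 was called higher and 3 lower in ROSI against DMSO, 2 higher in TBT against DMSO, and 4 higher and none lower in TBT against ROSI, with medians of 0.16, 0.37 and 0.42. Lpcat3, which places polyunsaturated chains into phospholipids, rose with TBT by 0.58 ± 0.11 (edgeR, adjusted p = 0.0033), and Acsl4, which activates arachidonic acid, by 0.60 ± 0.16 (edgeR, adjusted p = 0.021). Ptgs1, a cyclooxygenase, fell with ROSI at -0.41 ± 0.13, and Ptgs2, the inducible cyclooxygenase, at -0.68 ± 0.14. Both were higher in TBT than in ROSI, Ptgs1 at 0.78 ± 0.13 and Ptgs2 at 0.64 ± 0.14. Of 10 users of very long chains tested, 4 were called higher and 1 lower in ROSI against DMSO, 2 higher in TBT against DMSO, and 1 higher and 3 lower in TBT against ROSI, with medians of 0.27, 0.05 and -0.14. Called genes made up 22.6%, 15.2% and 23.9% of all genes tested there. Abcd2, a peroxisomal importer, fell with ROSI at -1.25 ± 0.14, and Cers2, the ceramide synthase of very long chains, rose with ROSI by 0.42 ± 0.11 (edgeR, adjusted p = 0.0091).

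Some cell type markers moved beside these genes. Over all genes tested, 22.6% were called in ROSI against DMSO, 15.2% in TBT against DMSO and 23.9% in TBT against ROSI. With marker lists this short, no list's count is read as differing from those shares. Of 8 adipocyte markers, 7 were called higher in ROSI against DMSO, 4 higher and 1 lower in TBT against DMSO, and 6 lower in TBT against ROSI, and their summed level was 2802 to 3868 CPM in TBT, 5528 to 7073 CPM in ROSI and 1074 to 2375 CPM in DMSO. Adiponectin (Adipoq) was the 1 lower in TBT, at -2.17 ± 0.29. Of 7 stromal markers tested, 3 were called lower with each ligand against DMSO, and 3 higher in TBT against ROSI. Those lower were Pdgfra, Pdgfrb and Ly6a in ROSI, and Pdgfra, Ly6a and Cd44 (edgeR, adjusted p = 0.049) in TBT. Stromal sums were 1349 to 1819 CPM in TBT, 759 to 845 CPM in ROSI and 2099 to 2831 CPM in DMSO. In bulk RNA, fewer cells of a type and less RNA per cell cannot be told apart, and the part of these markers in the values above was not tested. Summed osteoblast markers were at 209 to 285 CPM in TBT, 145 to 213 CPM in ROSI and 217 to 272 CPM in DMSO. Most of that sum was Runx2, which averaged 212 CPM in TBT, 171 CPM in ROSI and 216 CPM in DMSO. Sp7, Bglap, Ibsp and Dmp1 averaged at most 0.322 CPM in any group. Of 2 osteoblast markers tested none was called against DMSO, and 1 was called higher in TBT against ROSI. Against DMSO, 1 of 2 chondrocyte markers was called lower in TBT, 1 of 2 macrophage markers higher in ROSI, 1 of 2 endothelial markers lower in ROSI, and the 1 erythroid marker tested lower with each ligand. Their sums were at most 81.0 CPM for chondrocyte, 20.8 CPM for macrophage, 9.83 CPM for endothelial and 24.5 CPM for erythroid markers in any library, and Matn1 (cartilage) and Cldn5 (endothelium) had no read in any library. By mean, Sox9, Cd68 and Alas2 made up most of the chondrocyte, macrophage and erythroid sums in each group.

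Libraries held 4027152 to 7474654 counted reads. TBT replicate 4 correlated on average at 0.953 with the other TBT libraries and at 0.961 with DMSO libraries. Ribosomal precursor reads (Rn45s) were 6.85% of its reads, against 0.399 to 0.670% in the other TBT libraries and 1.36 to 9.27% in ROSI and DMSO. GC-rich minus GC-poor genes lay at 0.11 on a log2 scale in it and at -0.55, -0.45 and -0.26 in TBT replicates 1 to 3. ROSI libraries lay at -0.026 to 0.422 and DMSO libraries at 0.052 to 0.272. TBT replicate 4 was thus within both ranges, and TBT replicates 1 to 3 were below both. In the fits without TBT replicate 4, treatment with TBT and this GC difference cannot be told apart. Reads of 1504 sensory receptor genes made up 115 to 195 CPM in TBT, 62.8 to 76.0 CPM in ROSI and 295 to 775 CPM in DMSO. The part of these differences in the values of the elongases and desaturases was not tested beyond the fits without TBT replicate 4 and with GC correction.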

How the data were processed

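RNA was depleted of ribosomal RNA and read as single 50 nt SOLiD reads without strand information, per the labels' protocols. The authors deposited 1 table of raw read counts by gene symbol and 1 of log2 values whose name marks them as regularized-log. The build was mm9, per the submitters' processing notes, which also name FastQC, SAMtools and DESeq2. Which aligner, counter and gene annotation they used is not given in the sources used here.

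The 12 libraries were grouped by title and fitted in 1 model with edgeR 4.0.16 in R 4.3.3 (filterByExpr with a minimum count of 10, TMM factors, quasi-likelihood F test, Benjamini-Hochberg over 12323 genes, threshold 0.05). Library totals were 4027152 to 7474654 counts, and low counts limit the precision of Elovl2, Elovl3, Elovl4 and Elovl7. CPM used TMM-scaled totals, and the SE is the log2 fold change divided by the square root of F. Exon length, GC content and neighbours came from GRCm38 annotations, which were matched to the count table by symbol. The fit was tested on simulated data. The 10 genes and all lists were chosen with earlier results of these data known. Named genes are the 10, up to 4 called genes with the smallest p per list and comparison, Scd1, Srebf1, Pparg and Rxra, and the 3 genes nearest in pattern to those called with a fold of at least 2 against DMSO. Degs1, Adipoq, Plin1, Cidea, Dio2, Ucp1, Fabp4, Cd36, Matn1, Cldn5 and the genes that overlap 1 of the 10 were named after their values were seen. So were Cox8b, Ppargc1a, Prdm16, Pdgfra, Pdgfrb, Ly6a, Cd44, Runx2, Sp7, Bglap, Ibsp, Dmp1, Sox9, Cd68 and Alas2. The labels do not say whether libraries came from separate cultures, and each p-value reflects only differences among these libraries, possibly technical ones. Same-numbered libraries of different groups did not deviate together (correlations of -0.43 to 0.14), so numbers were not used as pairs. Alternatives covered scaling, filters, DESeq2 1.42.0, limma 3.58.1 on the deposited log2 values, a replicate block, only the groups compared, each library left out, and, chosen after seeing the data, GC-corrected offsets.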

Additional observations from a re-analysis of the deposited data

Results flagged for a closer look

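Single libraries stood apart in 6 of 28 sets of 4 libraries, each set being 1 gene in 1 group, where chance flags about 1 in 20 such sets. Sets of the same group share their libraries and are not independent, so no excess over chance is read from this. In TBT, replicate 4 had 21.5 CPM of Elovl1, against 11.6 to 13.05 CPM in the other TBT libraries, and 22.8 CPM of Fads2, against 10.8 to 12.4 CPM. In ROSI, replicate 2 had 47.6 CPM of Elovl3, against 32.6 to 35.1 CPM in the other ROSI libraries, and 13.75 CPM of Elovl4, against 6.34 to 6.82 CPM. ROSI replicate 1 had 219 CPM of Fads1, below the 246 to 247 CPM of the other ROSI libraries. In DMSO, replicate 3 had 11.3 CPM of Elovl3, against 4.28 to 5.38 CPM in the other DMSO libraries.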

How the results depend on the processing

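Over 22 alternatives, 2 of them chosen after seeing the data, 481 of 528 fold changes of the 8 genes kept their direction and their side of the threshold, 17 lost a call, 18 gained one and 12 changed sign. The calls of Elovl3, Elovl5 and Fads3 against DMSO, and of Elovl3, Fads3 and Elovl6 in TBT against ROSI, held in all 22. The number of genes called among the 8 was 3 in ROSI against DMSO and 3 to 5 with 1 library left out, 3 in TBT against DMSO and 2 to 6, and 4 in TBT against ROSI and 3 to 6. In each comparison the highest of these came without TBT replicate 4. Correcting for GC content without that library gave 5 called in TBT against DMSO and 7 in TBT against ROSI, with Elovl5 then at -0.44 (adjusted p = 0.028). Log2 fold changes that changed sign, none of them called, were those of Elovl1 in ROSI against DMSO, at -0.0023 with upper-quartile scaling and -0.0740 to 0.146 with 1 library left out, below 0 without DMSO replicate 3 (-0.0206) or 4 or ROSI replicate 1 (-0.0169) or 2 (-0.0331), and Fads1 in ROSI against DMSO, at 0.0534 without DMSO replicate 4 and down to -0.2353 without DMSO replicate 1. In TBT against DMSO, Fads3 was at 0.0106 with GC correction and 0.1269 with that and without TBT replicate 4. In TBT against ROSI, Fads2 was at -0.2192 to 0.2508 with 1 library left out, with -0.0903 without ROSI replicate 3, -0.1090 without ROSI replicate 4, -0.2192 without TBT replicate 4, and at -0.0088 with GC correction and without TBT replicate 4. The causes were not tested. The fit with a replicate block called 3, 3 and 3 of the 8 genes, the call lost being Fads1 in TBT against ROSI (adjusted p = 0.054), and since the numbers do not pair the libraries this says nothing of its strength. Over all genes, calls in TBT against DMSO numbered 1879, 1160 with the block, 1199 with only the groups compared, 3604 with GC correction and without TBT replicate 4, and 1019 to 4124 with 1 library left out. In TBT against ROSI they numbered 2940 and 1732 to 4826 with 1 library left out. Depth limits Elovl2 and Elovl7, which were not tested, and Elovl3 in TBT, with 15 reads.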
